A study of Mus musculus with 12 samples.

Results

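The genes described here are the enzymes of glycolysis, the kinases that steer its flux, and other targets of the hypoxia-inducible factors (HIF), measured in liver progenitor cells as they were moved from basal culture into aggregates. A list of 37 gene symbols set the members, and 34 of them had a probe set annotated to that gene alone. They were 14 of 16 glycolytic enzymes, all 5 listed flux regulators and 15 of 16 other HIF targets, out of 18195 genes on the array. All 34 passed the filter on dim probe sets (2 or more arrays at log2 5 or higher), so none was left out for low signal. Gpi1 and Eno1 were not listed in the probe annotation used here. The 3 probe sets of Bnip3l were annotated to a pseudogene as well and gave no value. Where a gene had several probe sets, the brightest on average was used. Gapdh was read from the array's own Gapdh control probe sets, since its other sets were also annotated to pseudogenes.

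The cells were 2 BMEL lines, 9A1 and 14B3, isolated independently at dpc14 from livers of wild-type mouse embryos (CBA/J x C57Bl/6J). BMEL stands for bipotential mouse embryonic liver. BMEL cells can turn towards hepatocytes or bile duct cells, and growth as aggregates is a way to induce the first of these. RNA of each line came from cells in basal culture, aggregates kept for 1 day and aggregates kept for 5 days, in 2 biological replicates of each of 6 groups, and was hybridised to Affymetrix mouse arrays. The labels give no oxygen level and no separate treatment, and every culture is of an untreated wild-type line. The replicates are called biological, with nothing on how they were kept apart, so p-values measure the spread between these cultures only. RNA was taken from whole cultures, in which fewer cells of a type and less RNA per cell cannot be told apart.

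Glycolysis splits glucose into pyruvate, and lactate dehydrogenase turns pyruvate into lactate where it is not burned in mitochondria. HIF is a pair of proteins, an alpha subunit that prolyl hydroxylases mark for destruction while oxygen is plentiful and a stable beta subunit. When oxygen is short the alpha subunit persists, binds short DNA elements and switches on glucose transporters, nearly all glycolytic enzymes, pyruvate dehydrogenase kinases, mitophagy genes and vascular growth factors. Its amount is mostly set at the protein level, which arrays do not see. In the liver the enzyme isoforms also differ between the fetal and the mature organ, and glucokinase, the liver aldolase and the liver pyruvate kinase belong to the hepatocyte.

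One array stood apart from its label and touches every comparison with basal culture. Basal 9A1 replicate 1 lay at -11.7 on the first principal component, where the other 3 basal arrays lay at 69.5 to 78.8, the day 1 arrays at 3.29 to 25.8 and the day 5 arrays at -83.8 to -61.4. Its correlation with the other basal 9A1 array was 0.952 over all probe sets, against 0.976 with day 5 14B3 replicate 1. Hepatocyte markers averaged 9.92 on it and 6.15 to 6.54 on the other basal arrays (log2, 6 genes), and cycling genes averaged 10.46 on it and 11.42 to 11.60 on the others (4 genes). Among the members it was above all 3 other basal arrays for 24 of 34 genes and below all 3 for 5, where 31.2% of all genes tested lay above and 41.0% below. Where day 1 or day 5 is compared with basal culture, counts or differences are given with this array and without it. Without it the 9A1 basal level rests on replicate 2 alone. That array was below both basal 14B3 arrays for 29 of the 34 members, and for 45.7% of all genes tested. Day 1 9A1 replicate 2 had a narrower spread of values than the other arrays (an SD of 2.13) and correlated at 0.949 with its own replicate.

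**Figure D1:**
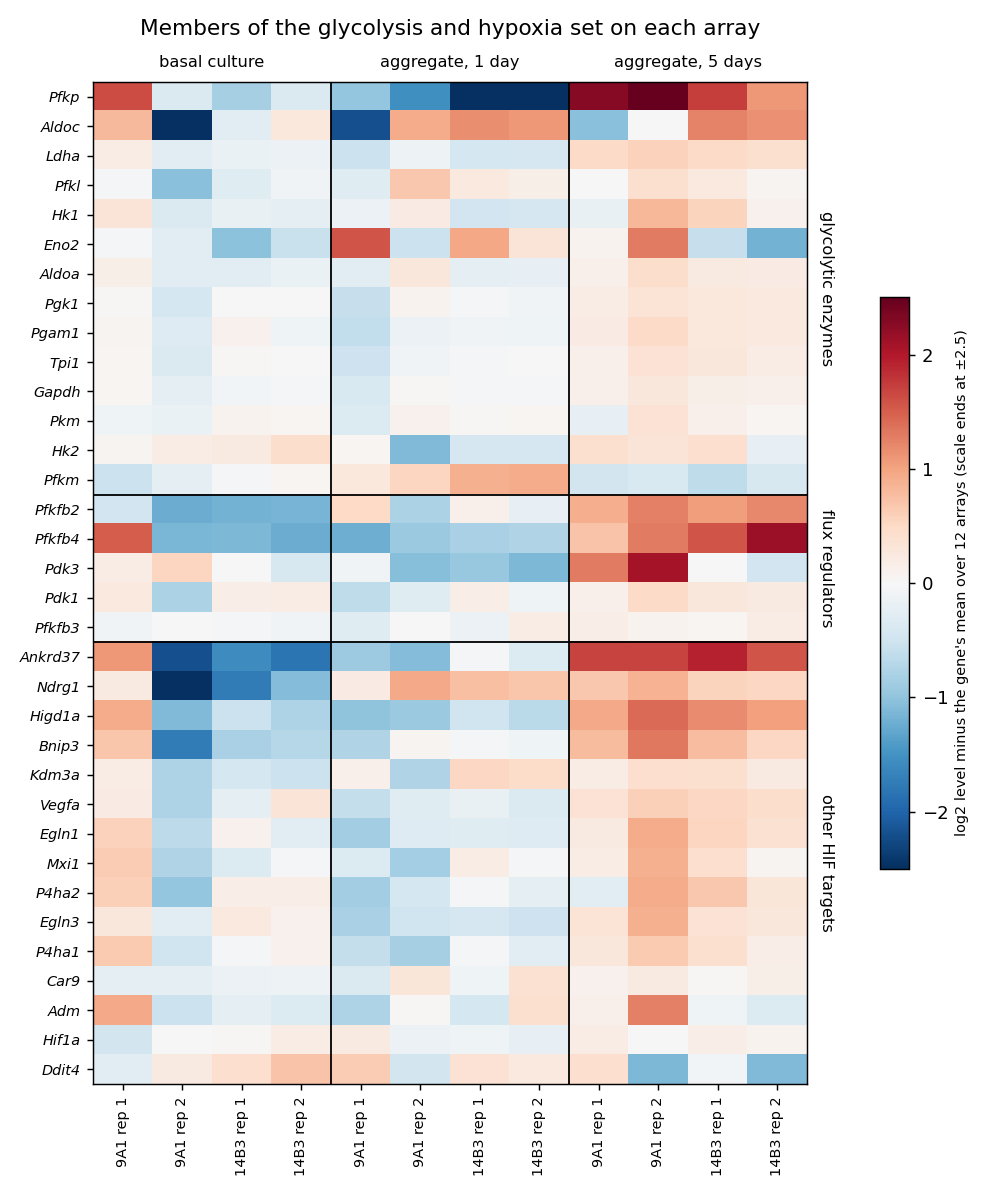
Each row is one of the 34 members and each column one array, grouped by culture (basal, 1 day and 5 days as aggregates) and by class (enzymes, flux regulators, other HIF targets). The colour is the log2 level minus the gene's mean over the 12 arrays, and the first column, basal 9A1 replicate 1, is above the other basal columns for 24 of the 34 genes.

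After 5 days as aggregates, 9 of the 34 members rose over basal culture and none fell (limma, adjusted p under 0.05 over 15782 genes). Over all genes tested, 16.9% rose and 18.6% fell, so the members' 26.5% was above that background on one side and at 0 on the other. The rise was led by Ankrd37, Pfkfb2, Pfkp, Ndrg1 and Pfkfb4, each 3.80-fold to 7.17-fold higher, followed by Higd1a, Bnip3, Kdm3a and Ldha. Across the members the median difference was 0.40 on the log2 scale, against 0.01 over all genes tested. Without basal 9A1 replicate 1 the count became 22 of 34, with all 9 among them, against a background of 19.7% higher and 20.8% lower. The 13 genes added were 7 enzymes, 1 flux regulator and 5 HIF targets. Without basal 9A1 replicate 2 instead, the day 5 differences of these added genes ran from -0.06 (Aldoc) to 0.36 (Vegfa). Without replicate 1 they ran from 0.32 (Gapdh) to 1.90 (Aldoc). Counts with other single arrays left out lay on both sides of the count with all arrays and are given below. All 4 day 5 arrays lay above all 4 basal arrays for 13 members and below them for 0, where 18.5% of all genes tested lay above and 20.3% below.

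By class, enzymes were called in 2 of 14 cases (14.3%, close to the background of 16.9%), with a median difference of 0.37. Flux regulators were called in 2 of 5 cases, with a median of 0.65. Other HIF targets were called in 5 of 15 cases (33.3%), with a median of 0.52. Without basal 9A1 replicate 1 the counts were 9 of 14 enzymes, 3 of 5 flux regulators and 10 of 15 HIF targets, and the medians 0.47, 0.59 and 0.85. Without basal 9A1 replicate 2 instead, the medians were 0.25, 0.74 and 0.28. Whether the classes differ from each other was not tested, and levels of different probe sets were not compared.

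**Figure D2:**
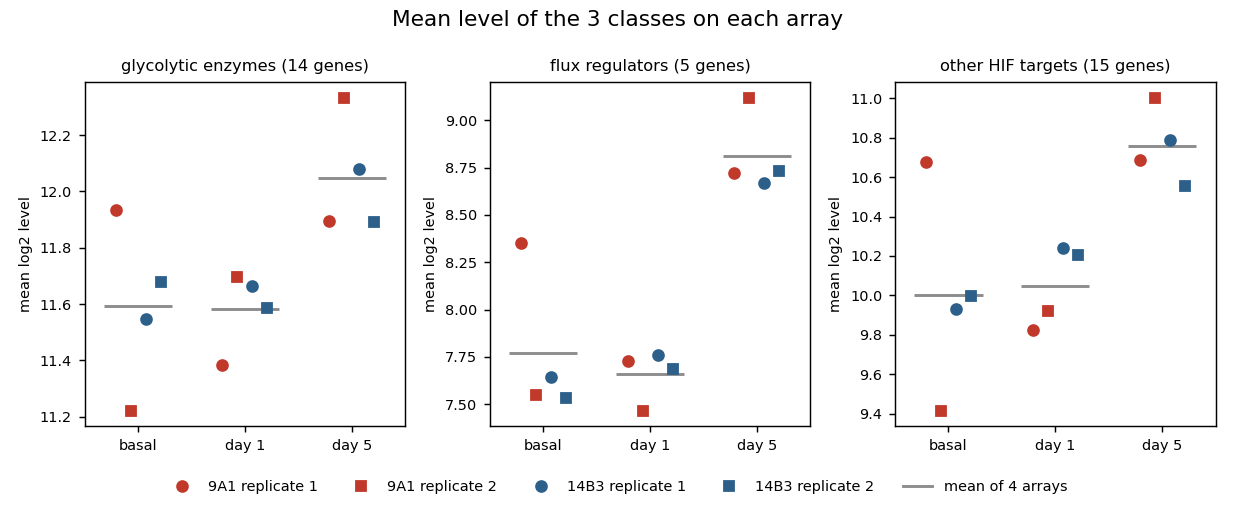
Points are the mean log2 level of the 14 enzymes, 5 flux regulators and 15 other HIF targets on each array, by culture, with 9A1 in red and 14B3 in blue and a grey line at the mean of 4 arrays. The HIF target mean of basal 9A1 replicate 1 is 10.68, inside the day 5 range of 10.56 to 11.00, and the other basal arrays lie at 9.41 to 10.00.

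Between day 5 and day 1, the aggregates themselves can be compared without any basal array. On that contrast 13 members were higher at day 5 and 1 was lower, where 11.7% of all genes were higher and 10.0% lower. The 13 were Ankrd37, Egln1, Egln3, Higd1a, Ldha, P4ha1, Pdk3, Pfkfb2, Pfkfb4, Pfkp, Pgam1, Tpi1 and Vegfa, and the lower one was Pfkm. By class they were 4 enzymes up and 1 down, 3 flux regulators and 6 HIF targets, with median differences of 0.39, 1.20 and 0.81 against -0.04 over all genes tested. This contrast shares its day 5 arrays with the one against basal culture, and 6 genes (Ankrd37, Higd1a, Ldha, Pfkfb2, Pfkfb4 and Pfkp) were called in both. All 4 day 5 arrays lay above all 4 day 1 arrays for 15 members and below them for 1, against 15.1% and 12.1% of all genes tested. The spread is pooled over all 12 arrays, so leaving out a basal array can also change the calls. More members were called without either basal 9A1 array. Fewer were called without any one of the day 1 or day 5 14B3 arrays or replicate 2 of 9A1 at day 5. The range of these counts is given below. Egln3, Higd1a, Ldha, Pdk3, Pfkfb4, Pfkp and Pfkm were called whichever single array was left out. Of the others, Pfkfb2 was called in 8 of the 12 such fits, Ankrd37 and Pgam1 in 7, Vegfa in 5, Egln1 in 4, and P4ha1 and Tpi1 in 3.

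After 1 day as aggregates few members differed from basal culture. Ndrg1 and Pfkm rose and Pfkp and Egln3 fell, where 5.25% of all genes rose and 8.79% fell. The members' median difference was -0.08, against 0.03 over all genes. Without basal 9A1 replicate 1, 7 members rose (adding Ankrd37, Bnip3, Kdm3a, Pfkfb2 and Pfkl) and 3 fell (adding Pdk3), against 10.3% and 12.4% of all genes. Without basal 9A1 replicate 2 instead, the class medians at day 1 were -0.16 (enzymes), -0.43 (flux regulators) and -0.49 (other HIF targets). Without replicate 1 they were 0.05, 0.09 and 0.10, so their sign depended on which basal 9A1 array was left out. Leaving out any one 14B3 array gave fewer calls than all arrays did. Among Ndrg1, Pfkm, Pfkp and Egln3, only Pfkm kept its call whichever single array was left out. The HIF target mean was 9.82 to 10.24 on the day 1 arrays, against 9.41 to 10.00 on the 3 basal arrays other than 9A1 replicate 1.

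The phosphofructokinases, which commit glucose to glycolysis by adding another phosphate to the sugar, moved in different directions. Pfkp, the platelet-type isoform, measured 10.33 and 8.32 in basal 9A1, 7.86 and 8.33 in basal 14B3, 7.73 and 7.14 in day 1 9A1, 6.05 and 5.74 in day 1 14B3, 10.95 and 11.60 in day 5 9A1 and 10.42 and 9.76 in day 5 14B3. The day 1 arrays were all below the basal ones and the day 5 arrays all above the day 1 ones, and only basal 9A1 replicate 1 reached into the day 5 range. Pfkp was 4.13-fold lower at day 1 than in basal culture (-2.04 ± 0.41 log2, adjusted p = 0.0115) and 16.2-fold higher at day 5 than at day 1 (4.02 ± 0.41, adjusted p = 0.000413). Day 5 against basal gave 1.97 ± 0.41 (adjusted p = 0.0048), and 2.48 ± 0.26 without basal 9A1 replicate 1. Day 1 against basal gave -1.54 ± 0.26 without that array. Among the fits that each left out 1 array, the day 1 call was lost only without replicate 2 of 14B3 at day 1. It was also lost in 9A1 alone and at a threshold of 0.01. Within the lines, day 5 exceeded day 1 by 3.84 in 9A1 and 4.20 in 14B3.

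Pfkm, the muscle-type isoform, ran the other way. Its levels were 9.54 and 9.84 in basal 9A1, 10.03 and 10.12 in basal 14B3, 10.34 and 10.62 in day 1 9A1, 10.98 and 11.00 in day 1 14B3, 9.62 and 9.70 in day 5 9A1 and 9.45 and 9.69 in day 5 14B3. All day 1 arrays were above all others, and the day 5 arrays overlapped the basal ones. It rose by 0.85 ± 0.13 log2 at day 1 over basal culture (adjusted p = 0.00329, and by 0.78 ± 0.13 without basal 9A1 replicate 1) and fell by 1.12 ± 0.13 at day 5 relative to day 1 (adjusted p = 0.00069). The difference of day 5 from basal culture, -0.27, did not pass (adjusted p = 0.137). Pfkl, the liver-type isoform, measured 11.10 to 12.12 in basal culture, 11.84 to 12.82 at day 1 and 12.17 to 12.54 at day 5. It was not called in any culture comparison with all arrays, and without basal 9A1 replicate 1 its difference from basal culture was 0.81 ± 0.22 at day 1 (adjusted p = 0.0284) and 0.81 ± 0.22 at day 5 (adjusted p = 0.0167).

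**Figure D3:**
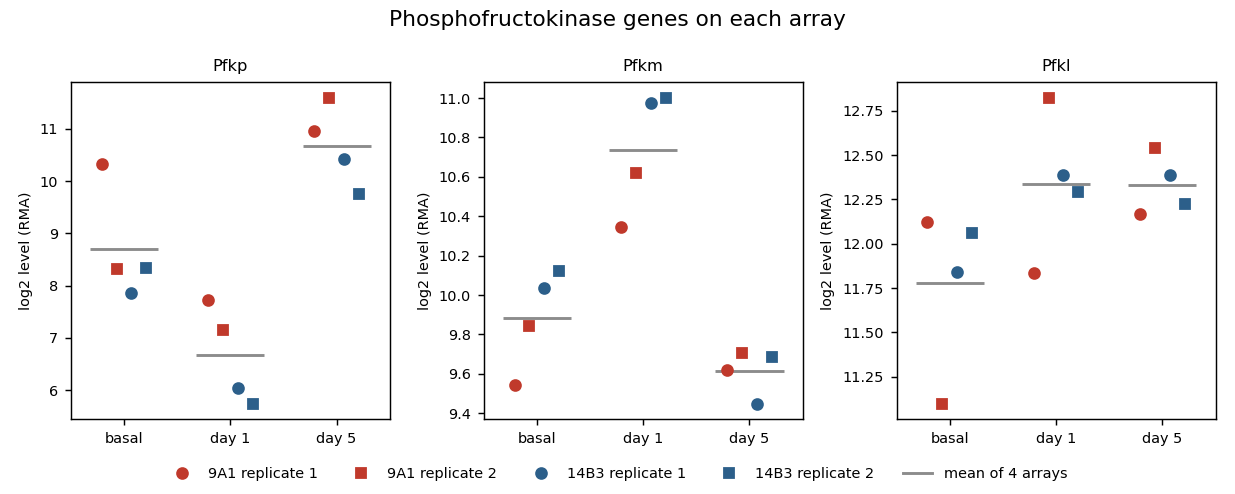
Points are log2 levels of Pfkp, Pfkm and Pfkl on each array, by culture, with 9A1 in red, 14B3 in blue and a grey line at the mean of 4 arrays, and each panel has its own axis. Pfkp is lowest at day 1, with a day 5 minus day 1 difference of 4.02 log2, and Pfkm is highest at day 1, with a difference of -1.12.

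Of the enzymes below phosphofructokinase, only Ldha, the muscle-type subunit of lactate dehydrogenase, was called in both comparisons with day 5. Its levels were 13.60 and 13.13 in basal 9A1, 13.26 and 13.28 in basal 14B3, 12.89 and 13.30 in day 1 9A1, 12.99 and 12.99 in day 1 14B3, 13.90 and 14.00 in day 5 9A1 and 13.89 and 13.81 in day 5 14B3. The day 5 arrays were above all 8 others, and basal 9A1 replicate 1 was the highest of the rest. Ldha was 1.50-fold higher at day 5 than in basal culture (0.58 ± 0.12 log2, adjusted p = 0.00449) and 1.81-fold higher than at day 1 (0.86 ± 0.12, adjusted p = 0.00153). The lines gave nearly the same difference from basal culture, 0.59 in 9A1 and 0.58 in 14B3. The difference was 0.70 ± 0.10 without basal 9A1 replicate 1.

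Tpi1, triosephosphate isomerase, measured 13.51 and 13.09 in basal 9A1, 13.49 and 13.44 in basal 14B3, 12.93 and 13.37 in day 1 9A1, 13.42 and 13.44 in day 1 14B3, 13.58 and 13.82 in day 5 9A1 and 13.74 and 13.65 in day 5 14B3. Pgam1, phosphoglycerate mutase, measured 12.71 and 12.32 in basal 9A1, 12.75 and 12.54 in basal 14B3, 12.04 and 12.50 in day 1 9A1, 12.56 and 12.53 in day 1 14B3, 12.84 and 13.12 in day 5 9A1 and 12.90 and 12.89 in day 5 14B3. For both genes the day 5 arrays were above every other array. The steps were small: day 5 exceeded day 1 by 0.41 ± 0.12 log2 for Tpi1 (adjusted p = 0.0421) and by 0.53 ± 0.13 for Pgam1 (adjusted p = 0.02). Against basal culture neither passed, with 0.31 (adjusted p = 0.0761) and 0.36 (adjusted p = 0.0635), and both did without basal 9A1 replicate 1, at 0.42 ± 0.11 and 0.46 ± 0.13.

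Gapdh, Pgk1 and Aldoa, which carry glycolysis through aldolase cleavage and its first ATP-yielding steps, stood near the top of the array's range. Their day 5 means were 14.49 ± 0.07, 14.10 ± 0.06 and 13.59 ± 0.13, against 14.24 ± 0.11, 13.74 ± 0.23 and 13.21 ± 0.20 in basal culture (SD, n = 4 arrays each), while the highest value on any array was between 14.5 and 14.7. None of the 3 passed with all arrays (adjusted p = 0.0799, 0.0924 and 0.0644), and all 3 did without basal 9A1 replicate 1 (adjusted p = 0.0272, 0.023 and 0.0191). Pkm, the pyruvate kinase of most tissues other than mature liver, ranged from 13.22 to 13.78 at day 5 and from 13.26 to 13.51 in basal culture, a difference of 0.12 ± 0.13 log2.

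The entry and side isoforms scattered more. Hexokinase genes Hk1 and Hk2, which trap glucose in the cell, differed from basal culture by 0.44 ± 0.24 and 0.00 ± 0.24 at day 5. Hk2 was lower at day 1 on all 4 arrays than on any basal array, and its difference of -0.70 log2 did not pass (adjusted p = 0.0876). Aldoc, the brain-type aldolase, spanned 7.49 to 11.41 in basal culture alone, with basal 9A1 replicate 2 lowest and basal 9A1 replicate 1 highest. Its day 5 difference was 0.92 ± 0.86 with all arrays, which did not pass (adjusted p = 0.503). It was 1.90 without basal 9A1 replicate 1 and -0.06 without replicate 2. Eno2, the neuronal enolase, overlapped between all cultures, at 6.21 to 7.19 in basal culture, 6.71 to 8.81 at day 1 and 6.05 to 8.54 at day 5.

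Among the flux regulators, the bifunctional enzymes that make and break fructose 2,6-bisphosphate, an activator of phosphofructokinase, included 2 genes that rose at day 5. Pfkfb2 measured 7.44 and 6.68 in basal 9A1, 6.75 and 6.77 in basal 14B3, 8.42 and 7.14 in day 1 9A1, 8.06 and 7.73 in day 1 14B3, 8.84 and 9.18 in day 5 9A1 and 8.98 and 9.12 in day 5 14B3. The day 5 arrays were above all others, and day 1 lay between basal and day 5 with overlap at its lower end. Pfkfb2 was 4.35-fold higher at day 5 than in basal culture (2.12 ± 0.28 log2, adjusted p = 0.000572), the smallest adjusted p of any member on that contrast with all arrays. The difference was 2.31 ± 0.29 without basal 9A1 replicate 1. Its day 1 difference of 0.92 ± 0.28 did not pass with all arrays (adjusted p = 0.0611) and passed without basal 9A1 replicate 1 (adjusted p = 0.0235).

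Pfkfb4, a family member known as a HIF target, differed between the fits with and without basal 9A1 replicate 1. Its levels were 9.91 and 7.25 in basal 9A1, 7.26 and 7.14 in basal 14B3, 7.16 and 7.46 in day 1 9A1, 7.57 and 7.64 in day 1 14B3, 9.09 and 9.68 in day 5 9A1 and 9.97 and 10.53 in day 5 14B3. Basal 9A1 replicate 1 sat within the day 5 range, while the other 3 basal and all day 1 arrays lay within 7.14 to 7.64. Day 5 exceeded day 1 by 2.36 ± 0.48 log2 (5.12-fold, adjusted p = 0.00847). Against basal culture the difference was 1.93 ± 0.48 with all arrays (adjusted p = 0.0117) and 2.59 ± 0.21 without that array (adjusted p = 1.73e-05). Pfkfb3, the isoform with the strongest kinase activity, measured 6.49 to 6.62 at day 5 and 6.35 to 6.42 in basal culture, a difference of 0.17 ± 0.13 that did not pass. Its levels lay close to the arrays' medians over all probe sets (6.09 to 6.24), where a change can be missed.

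The pyruvate dehydrogenase kinases turn pyruvate away from mitochondrial oxidation by phosphorylating pyruvate dehydrogenase. Pdk3 measured 7.40 and 7.76 in basal 9A1, 7.21 and 6.82 in basal 14B3, 7.14 and 6.16 in day 1 9A1, 6.28 and 6.11 in day 1 14B3, 8.52 and 9.31 in day 5 9A1 and 7.23 and 6.75 in day 5 14B3. At day 5 the 9A1 arrays were the highest of all 12, and the 14B3 arrays lay within or just below the basal range. Averaged over the lines, day 5 exceeded day 1 by 1.53 ± 0.26 (adjusted p = 0.00417), with 2.27 in 9A1 and 0.79 in 14B3. Pdk1 is the isoform best known as a HIF target, and its dimmer probe sets gave day 5 differences from basal culture of 0.36, 0.58 and 1.29. On the last of these, all day 5 arrays (9.70 to 10.49) lay above all basal arrays (7.63 to 9.62). On its brightest probe set Pdk1 ranged from 10.54 to 10.90 at day 5 and from 9.63 to 10.66 in basal culture, where 9A1 replicate 2 was the low array. Its difference from basal culture was 0.33 ± 0.22 with all arrays, which did not pass (adjusted p = 0.307). It was 0.59 without basal 9A1 replicate 1 and 0.07 without replicate 2.

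The HIF targets outside glycolysis held the largest day 5 difference of all members. Ankrd37, an ankyrin repeat protein whose gene is a direct HIF target, measured 10.61 and 7.34 in basal 9A1, 7.96 and 7.70 in basal 14B3, 8.63 and 8.45 in day 1 9A1, 9.48 and 9.19 in day 1 14B3, 11.21 and 11.21 in day 5 9A1 and 11.46 and 11.11 in day 5 14B3. The day 5 arrays were above all others, and basal 9A1 replicate 1 came next. Ankrd37 was 7.17-fold higher at day 5 than in basal culture (2.84 ± 0.56 log2, adjusted p = 0.00387) and 4.96-fold higher than at day 1 (2.31 ± 0.56, adjusted p = 0.0181). Without basal 9A1 replicate 1 the day 5 difference was 3.66 ± 0.15, and day 1 stood 1.35 ± 0.15 above basal culture (adjusted p = 0.000438).

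Higd1a, a small protein of the inner mitochondrial membrane that helps cells survive low oxygen, measured 13.12 and 11.09 in basal 9A1, 11.67 and 11.43 in basal 14B3, 11.19 and 11.26 in day 1 9A1, 11.69 and 11.52 in day 1 14B3, 13.15 and 13.62 in day 5 9A1 and 13.38 and 13.22 in day 5 14B3. Day 5 was above every other array, though by only 13.15 against 13.12 at the nearest pair. Day 1 and the other 3 basal arrays overlapped. The day 5 difference was 1.52 ± 0.36 from basal culture (adjusted p = 0.00928) and 1.93 ± 0.36 from day 1 (adjusted p = 0.00569). The difference from basal culture was 2.02 ± 0.13 without basal 9A1 replicate 1 (adjusted p = 5.64e-06).

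Bnip3, a mitophagy receptor on the outer mitochondrial membrane, measured 12.85 and 10.41 in basal 9A1, 11.34 and 11.43 in basal 14B3, 11.40 and 12.22 in day 1 9A1, 12.13 and 12.04 in day 1 14B3, 12.94 and 13.47 in day 5 9A1 and 12.92 and 12.68 in day 5 14B3. Basal 9A1 replicate 1 lay within the day 5 range, and basal 9A1 replicate 2 was the lowest of all 12 arrays. Bnip3 was 2.82-fold higher at day 5 than in basal culture (1.49 ± 0.44 log2, adjusted p = 0.0268), and the difference was 2.11 ± 0.21 without basal 9A1 replicate 1 (adjusted p = 5.66e-05). The call held in 7 of the 12 fits that each left out 1 array and was lost without either basal 14B3 array, either day 5 14B3 array or replicate 2 of 9A1 at day 5. The step from day 1 to day 5, 1.05, did not pass (adjusted p = 0.132) although all 4 day 5 arrays were above all 4 day 1 arrays.

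Ndrg1, a stress response gene induced by low oxygen and by differentiation, followed another course. Its levels were 13.05 and 10.26 in basal 9A1, 11.08 and 11.74 in basal 14B3, 13.02 and 13.77 in day 1 9A1, 13.58 and 13.51 in day 1 14B3, 13.49 and 13.70 in day 5 9A1 and 13.37 and 13.34 in day 5 14B3. The day 1 and day 5 arrays overlapped each other and, basal 9A1 replicate 1 aside, were far above basal culture. Ndrg1 was 3.83-fold higher at day 1 (1.94 ± 0.50 log2, adjusted p = 0.0326) and 3.85-fold higher at day 5 (adjusted p = 0.0136) than in basal culture, and day 5 differed from day 1 by 0.01 ± 0.50. With basal 9A1 replicate 1 left out the differences from basal culture were 2.64 ± 0.20 at day 1 (adjusted p = 7.30e-05) and 2.64 ± 0.20 at day 5 (adjusted p = 1.38e-05). Of the 12 fits that each left out 1 array, the day 1 call held in 3 (without either basal 9A1 array or replicate 1 of 9A1 at day 1) and the day 5 call in 11 (all but that without basal 14B3 replicate 1). Kdm3a, a histone demethylase, measured 11.31 and 10.36 in basal 9A1, 10.68 and 10.59 in basal 14B3, 11.25 and 10.37 in day 1 9A1, 11.63 and 11.57 in day 1 14B3, 11.30 and 11.54 in day 5 9A1 and 11.52 and 11.34 in day 5 14B3. It was just past the threshold at day 5 (0.69 ± 0.24, adjusted p = 0.0486), its basal and day 5 arrays overlapped through basal 9A1 replicate 1, and its difference was 0.93 ± 0.20 without that array (adjusted p = 0.0048). Its call held in 3 of the 12 fits, those without basal 9A1 replicate 1 or either 9A1 array of day 1.

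**Figure D4:**
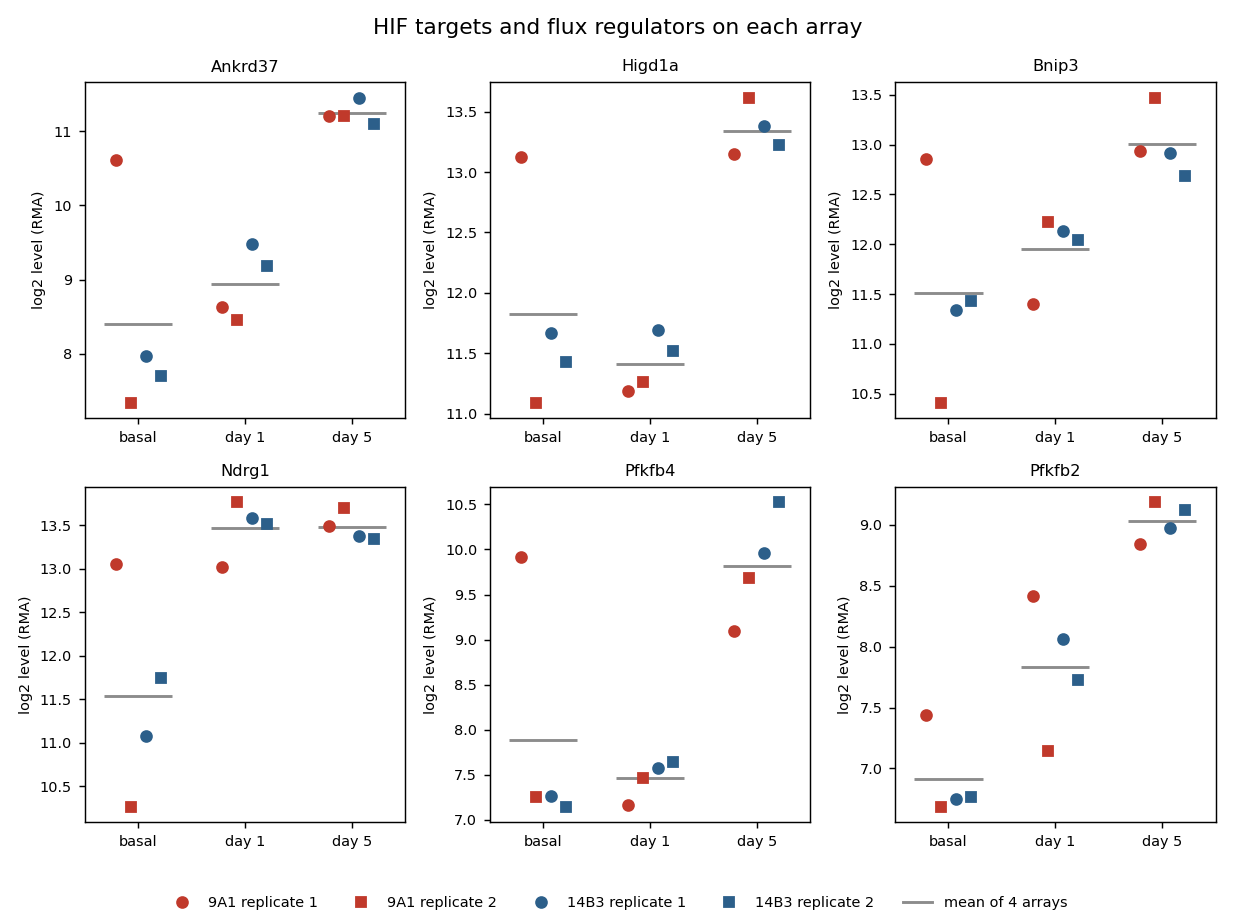
Points are log2 levels of Ankrd37, Higd1a, Bnip3, Ndrg1, Pfkfb4 and Pfkfb2 on each array, by culture, with 9A1 in red, 14B3 in blue and a grey line at the mean of 4 arrays, and each panel has its own axis. Basal 9A1 replicate 1 is the highest basal point in all 6 panels, and Ndrg1 alone of the 6 has day 1 arrays within its day 5 range, 13.47 ± 0.32 at day 1 and 13.48 ± 0.16 at day 5 (mean and SD of 4 arrays).

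The prolyl hydroxylases Egln1 and Egln3, which mark HIF alpha subunits for destruction and are themselves HIF targets, were higher at day 5 than at day 1. Egln3 measured 11.82 and 11.25 in basal 9A1, 11.78 and 11.64 in basal 14B3, 10.73 and 11.03 in day 1 9A1, 11.11 and 11.01 in day 1 14B3, 11.88 and 12.43 in day 5 9A1 and 11.90 and 11.82 in day 5 14B3. Every day 1 array was below every other array. Egln3 differed at day 1 from basal culture by -0.65 ± 0.16 log2 (adjusted p = 0.0299), and by -0.51 ± 0.15 without basal 9A1 replicate 1 (adjusted p = 0.0369). That call held in 6 of the 12 fits that each left out 1 array and was lost without any one of the 14B3 arrays, and also with the mean of a gene's probe sets, quantile normalization or array weights. Egln3 was higher at day 5 than at day 1 by 1.04 ± 0.16 (adjusted p = 0.00281). Egln1 measured 10.75 and 9.51 in basal 9A1, 10.27 and 9.88 in basal 14B3, 9.28 and 9.84 in day 1 9A1, 9.86 and 9.84 in day 1 14B3, 10.38 and 11.09 in day 5 9A1 and 10.70 and 10.53 in day 5 14B3. On this brightest probe set its day 5 arrays were above all day 1 arrays (0.97 ± 0.28, adjusted p = 0.0369). That call was lost with the mean of a gene's probe sets, quantile normalization or a replicate block. The difference of Egln1 from basal culture did not pass (0.57 ± 0.28, adjusted p = 0.156). It was 0.88 without basal 9A1 replicate 1 and 0.27 without replicate 2. On the dimmer Egln1 probe set day 5 (9.33 to 10.21) overlapped day 1 (8.70 to 9.77), and the difference from basal culture was 0.17.

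P4ha1, a subunit of the collagen prolyl hydroxylase, measured 10.51 and 9.36 in basal 9A1, 9.82 and 9.96 in basal 14B3, 9.25 and 9.03 in day 1 9A1, 9.81 and 9.57 in day 1 14B3, 10.13 and 10.51 in day 5 9A1 and 10.24 and 10.02 in day 5 14B3. Day 5 was above day 1 on all arrays, by 0.81 ± 0.24 (adjusted p = 0.0377), and overlapped basal culture. Its difference from basal culture was 0.32 ± 0.24 with all arrays (adjusted p = 0.378). It was 0.60 without basal 9A1 replicate 1 and 0.03 without replicate 2. Vegfa, the vascular growth factor that is the textbook HIF target, measured 10.18 and 9.19 in basal 9A1, 9.72 and 10.30 in basal 14B3, 9.37 and 9.67 in day 1 9A1, 9.78 and 9.60 in day 1 14B3, 10.34 and 10.55 in day 5 9A1 and 10.49 and 10.41 in day 5 14B3. On this brightest probe set its day 5 arrays were above all others. Vegfa was there 1.80-fold higher at day 5 than at day 1 (0.84 ± 0.22, adjusted p = 0.0262). The difference from basal culture, 0.60 ± 0.22, did not pass (adjusted p = 0.0654). It was 0.85 without basal 9A1 replicate 1 and 0.36 without replicate 2. On the other Vegfa probe set the day 5 arrays (10.00 to 10.52) were above all day 1 arrays (9.04 to 9.65). Basal 14B3 replicate 2 (10.77) was above them all, and the day 5 difference from basal culture was 0.23.

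Not all HIF targets were called higher at day 5. Car9, a carbonic anhydrase that is among the most hypoxia-induced genes of many tumours, measured 6.09 and 6.10 in basal 9A1, 6.18 and 6.20 in basal 14B3, 5.96 and 6.63 in day 1 9A1, 6.22 and 6.70 in day 1 14B3, 6.43 and 6.54 in day 5 9A1 and 6.35 and 6.48 in day 5 14B3. The day 5 arrays lay a little above the basal ones and within the day 1 range, and the difference from basal culture, 0.31 ± 0.17, did not pass. Car9 on all arrays, and Adm (below) on most, lay close to the arrays' medians over all probe sets (6.09 to 6.24). A change in so dim a signal can be missed. Hif1a itself, the alpha subunit, measured 12.02 and 12.49 in basal 9A1, 12.51 and 12.68 in basal 14B3, 12.71 and 12.34 in day 1 9A1, 12.38 and 12.28 in day 1 14B3, 12.67 and 12.49 in day 5 9A1 and 12.64 and 12.57 in day 5 14B3. On this brightest probe set of Hif1a the cultures overlapped, with basal 9A1 replicate 1 the lowest array, and the day 5 difference was 0.17 ± 0.13 (adjusted p = 0.381). Its 3 dimmer probe sets gave day 5 differences of 0.81, 0.68 and 0.39. On the first, all day 5 arrays (10.19 to 10.62) lay above all basal arrays (9.19 to 9.86). With the mean of a gene's probe sets in place of the brightest, Hif1a and Egln3 were called higher at day 5 than in basal culture. Ddit4, an inhibitor of mTOR signalling, had its 2 lowest values of all 12 arrays at day 5 (9.83 in 9A1 replicate 2 and 9.86 in 14B3 replicate 2), with a difference of -0.74 ± 0.38 that did not pass. Adm, the peptide adrenomedullin, Mxi1, a MYC antagonist, and P4ha2, another collagen hydroxylase subunit, overlapped between day 5 and basal culture, with differences of 0.28, 0.52 and 0.41. For Mxi1 the difference was 0.87 without basal 9A1 replicate 1 and 0.17 without replicate 2.

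**Figure D5:**
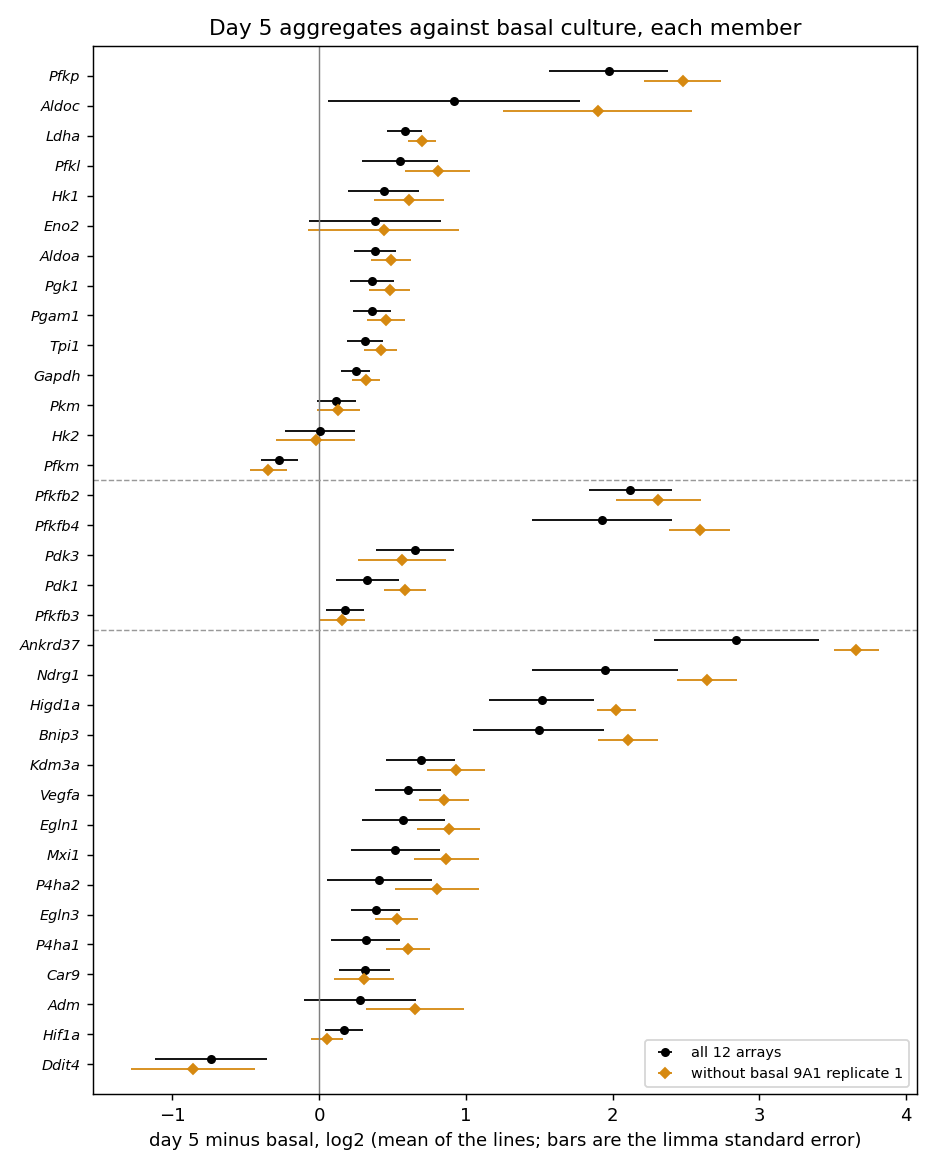
Each row is a member, and points are the day 5 minus basal difference in log2 averaged over the lines, with bars of 1 limma standard error, black with all 12 arrays and orange without basal 9A1 replicate 1. Dashed lines part enzymes, flux regulators and other HIF targets, and Ankrd37 is at 2.84 in black and 3.66 in orange.

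HIF binds a short core, ACGTG or GCGTG, and the promoters of 5 of the 6 members that were higher at day 5 than in both other cultures are shown to let the cores be seen beside the values above. Each line is RefSeq's window of 250 bases before to 50 bases after an annotated transcription start in build GRCm38.p6, 5′ to 3′ on the gene's strand. Capitals mark every ACGTG or GCGTG on either strand (on the opposite strand they read CACGT or CACGC). The sixth gene, Pfkfb2, has 3 annotated starts and is not shown, and of the starts of Ldha the one with more cores is shown.
Ankrd37: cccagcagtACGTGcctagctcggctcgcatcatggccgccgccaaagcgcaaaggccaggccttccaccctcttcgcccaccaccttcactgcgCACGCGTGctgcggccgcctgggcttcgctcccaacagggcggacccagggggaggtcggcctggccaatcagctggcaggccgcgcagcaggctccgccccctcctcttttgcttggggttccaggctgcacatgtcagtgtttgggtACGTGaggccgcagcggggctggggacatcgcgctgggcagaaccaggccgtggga
Higd1a: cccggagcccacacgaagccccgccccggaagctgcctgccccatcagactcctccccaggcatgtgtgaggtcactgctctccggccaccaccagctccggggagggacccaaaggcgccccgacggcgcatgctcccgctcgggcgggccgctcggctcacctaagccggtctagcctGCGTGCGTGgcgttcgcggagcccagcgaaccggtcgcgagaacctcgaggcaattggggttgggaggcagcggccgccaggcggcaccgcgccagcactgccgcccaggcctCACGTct
Ldha: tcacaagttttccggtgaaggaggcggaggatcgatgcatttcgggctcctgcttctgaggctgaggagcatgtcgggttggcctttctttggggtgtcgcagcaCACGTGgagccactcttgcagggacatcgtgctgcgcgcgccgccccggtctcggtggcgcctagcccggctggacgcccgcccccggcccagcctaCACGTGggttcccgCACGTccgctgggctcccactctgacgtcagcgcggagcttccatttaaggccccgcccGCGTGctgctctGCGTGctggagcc
Pfkfb4: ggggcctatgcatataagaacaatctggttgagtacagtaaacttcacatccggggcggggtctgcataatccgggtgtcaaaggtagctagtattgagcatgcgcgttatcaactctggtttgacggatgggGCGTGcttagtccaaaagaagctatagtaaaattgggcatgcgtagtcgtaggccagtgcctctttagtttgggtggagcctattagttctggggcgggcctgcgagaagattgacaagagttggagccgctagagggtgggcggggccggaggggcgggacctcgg
Pfkp: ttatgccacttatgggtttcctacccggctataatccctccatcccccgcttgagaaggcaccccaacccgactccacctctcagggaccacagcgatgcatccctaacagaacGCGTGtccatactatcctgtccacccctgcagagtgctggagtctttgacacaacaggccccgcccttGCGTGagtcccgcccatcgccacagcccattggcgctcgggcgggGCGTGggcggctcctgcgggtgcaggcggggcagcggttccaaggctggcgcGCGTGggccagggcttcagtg

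The windows of Ankrd37 (chr8:45999801-46000100, minus strand), Higd1a (chr9:121857747-121858046, minus), Ldha (chr7:46845554-46845853, plus), Pfkfb4 (chr9:108991652-108991951, plus) and Pfkp (chr13:6648722-6649021, minus) held 4, 3, 7, 1 and 4 cores. The cores of Pfkp and Pfkfb4 were all GCGTG, and Ldha held CACGTG, which reads as the core on both strands, at 2 places. RefSeq gave a window for 33 of the 34 members, all but Ndrg1. ACGTG was found in at least 1 window of 25 of these 33 genes (75.8%), against 27.1% of 12550 genes tested that have a window and 21.8% of all 27025 genes with one. With GCGTG counted as well the shares were 93.9% of members, 62% of genes tested and 46.7% of all. By class, ACGTG was in 10 of 14 enzymes, 3 of 5 flux regulators and 12 of 14 other HIF targets. These are counts of letters in a window. The members were listed as genes of glycolysis and the hypoxia response to begin with, and genes with more annotated starts have more letters searched.

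Between the lines no call was made. No member differed between 9A1 and 14B3 in its day 1 or day 5 response, where 0.00% and 0.0380% of all genes did, or in its level averaged over the cultures, where 0.272% did. At an unadjusted p under 0.05, the count was 0 for the day 1 response, 2 for the day 5 response (Pdk3 and Pfkfb4) and 3 for the level over the cultures, led by Pdk3, which averaged 0.98 ± 0.22 log2 higher in 9A1 than in 14B3 (adjusted p = 0.153). The share of all genes under that unadjusted threshold is not given here, so these counts are not read as a result about the members. The 2 basal 9A1 arrays lay on opposite sides of the 14B3 ones. Replicate 2 was below both 14B3 basal arrays for 29 of the 34 members (45.7% of all genes tested), with a difference from their mean of -3.10 for Aldoc, -1.15 for Ndrg1 and -0.98 for Bnip3. For 21 of the 34 members replicate 1 was above and replicate 2 below both 14B3 arrays, as was the case for 13.5% of all genes tested. Without basal 9A1 replicate 2, the 9A1 basal level rested on replicate 1 alone. For Ankrd37, Pfkfb4, Higd1a and Ndrg1 the 9A1 response minus the 14B3 response was then -3.58, -3.01, -1.95 and -1.80 log2 at day 1. At day 5 it was -2.85, -3.57, -1.50 and -1.41. Class medians of that difference were -0.22 (enzymes), -0.57 (flux regulators) and -1.17 (other HIF targets) at day 1 and -0.05, -0.02 and -0.52 at day 5. In that fit the class medians of day 5 minus basal culture were 0.25, 0.74 and 0.28.

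Markers of the cells' state moved with the cultures. Krt19, a keratin of bile duct cells and liver progenitors, was at 13.63 to 13.99 in basal culture, 13.88 to 13.97 at day 1 and 13.56 to 13.90 at day 5. Hepatocyte markers rose in 4 of 5 tested cases at day 5, with Cps1, Ttr and Alb by 5.37, 5.55 and 4.99 log2, and the list's mean was 10.35 to 10.98 on day 5 arrays and 6.15 to 9.92 on basal arrays. The count was the same without basal 9A1 replicate 1, and the values of Cps1, Ttr and Alb were 6.13, 7.28 and 6.56. All 4 cycling genes tested fell, with that array and without it, and their mean was 5.67 to 7.92 at day 5 and 10.46 to 11.60 in basal culture. Of 4 bile duct markers, Cftr rose by 3.26 and Krt7 fell by 1.72, and without basal 9A1 replicate 1 the count was 1 higher and 2 lower. Blood cell marker Cd68 fell by 1.19, and Ptprc and Hba-a1 were below log2 5 on every array, as were the endothelial gene Tek and the stellate cell gene Lrat. None of 3 endothelial and 4 stellate or mesenchymal genes tested was called at day 5, with all arrays or without basal 9A1 replicate 1. The part of these states in the members' values was not tested.

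Other genes of the pathway, none of them a member, were described from lists of their own. Of 16 further glycolysis and lactate genes tested, 7 rose and 3 fell at day 5 against basal culture. Slc2a1, the widespread glucose transporter and a HIF target, measured 12.21 and 10.38 in basal 9A1, 11.03 and 11.24 in basal 14B3, 10.50 and 10.21 in day 1 9A1, 10.90 and 10.74 in day 1 14B3, 11.98 and 12.61 in day 5 9A1 and 12.18 and 12.03 in day 5 14B3. Its day 5 arrays overlapped basal culture through 9A1 replicate 1, and its difference was 0.99 ± 0.34 from basal culture (adjusted p = 0.048) and 1.62 ± 0.34 from day 1 (adjusted p = 0.00968). It differed from basal culture by 1.44 ± 0.17 without basal 9A1 replicate 1 (adjusted p = 0.000142). The genes with the largest rises were Slc2a2, the hepatocyte glucose transporter, by 3.67, Hkdc1, a hexokinase relative, by 2.62 and Pdk2, the main pyruvate dehydrogenase kinase of liver, by 2.23, and without that array their differences were 4.42, 3.34 and 2.85. Those that fell were the muscle enolase Eno3 by 1.17, Tigar, which lowers fructose 2,6-bisphosphate, by 0.71, and the ADP-dependent glucokinase Adpgk by 0.43.

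Of 14 genes of the oxygen-sensing machinery, 3 rose and 1 fell. Epas1, which encodes the second HIF alpha subunit, rose by 2.20 ± 0.74 (adjusted p = 0.0451), with 11.33 and 10.89 in day 5 9A1 and 11.26 and 10.93 in day 5 14B3, against 11.95 and 7.76 in basal 9A1 and 7.33 and 8.58 in basal 14B3. Its highest value of all arrays was that of basal 9A1 replicate 1, and without that array the difference was 3.24 ± 0.29 (adjusted p = 3.29e-05). Arnt2, a beta subunit, rose by 0.92 and Hif1an, which hydroxylates an asparagine of HIF alpha, by 0.50, and Eloc, part of the VHL ubiquitin ligase, fell by 0.74. Of 18 further HIF targets tested, 7 rose and 1 fell, led by the glycogen branching enzyme Gbe1 at 1.71, the mitochondrial protein gene Fam162a at 1.50 and the glycogen synthase Gys1 at 0.98, and the one that fell was the glycoprotein gene Stc2, at -0.82. Gbe1, Fam162a and Gys1 were at 2.25, 1.89 and 1.17 without basal 9A1 replicate 1. These lists' shares, 7 of 16, 3 of 14 and 7 of 18 higher, stood beside 16.9% over all genes. With that array left out the counts were 7 higher and 3 lower of 16, 6 higher and 2 lower of 14 and 9 higher and 1 lower of 18, against 19.7% of all genes higher and 20.8% lower.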

How the data were processed

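Total RNA of 12 cultures was hybridised to Affymetrix mouse expression arrays. Per the submitters' processing notes, the authors used RMA and R 2.3.1, and the deposited table holds log2 levels per probe set. RMA normalises all arrays to one distribution, so differences in total RNA are not seen. The number of arrays limits the precision, and scans and detection calls are not used here. The table held 45101 probe sets, of which 34958 were annotated to 1 gene, 932 to several and 9211 to none in the platform annotation, and 34754 were matched to RefSeq by gene identifier. Each of 18195 genes was read from its brightest probe set by mean level. A model with 6 group means was fitted with limma 3.58.1 in R 4.3.3 (lmFit, eBayes with a variance trend) to the 15782 genes at log2 5 or more on at least 2 arrays, and p-values were adjusted over all of them with the Benjamini-Hochberg method. Contrasts averaged the lines. The script was tested on simulated data. Promoter windows are RefSeq's, build GRCm38.p6. Members described array by array are those called in a comparison of cultures, with Hif1a, Vegfa, Car9 and Slc2a1, and of each other list up to 3 called genes each way at day 5 are named. The members, the lists, the arrays left out and the tests were chosen with earlier results of these data known. Alternatives changed the filter, the probe set, the normalization, the model, the threshold and the arrays. Another background correction was not run, since only RMA levels are used here.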

Additional observations from a re-analysis of the deposited data

Results flagged for a closer look

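Among the 4 arrays of a culture, 16 of 111 sets of values (34 genes and 3 class means in 3 cultures) had an array set apart from the other 3. The rule flags about 1 in 20 sets of 4 independent normal values from 1 population. Each culture here holds 2 lines and the sets share genes and arrays, so that rate is not what these sets would give by chance. Of the 16 arrays, 1 was of 14B3 and the rest were of 9A1.

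In basal culture, 9A1 replicate 1 stood high for Pfkfb4 at 9.91 (others 7.14 to 7.26), for Pfkfb2 at 7.44 (others 6.68 to 6.77) and for the mean of the flux regulators at 8.35 (others 7.53 to 7.64). Basal 9A1 replicate 2 stood low for Pgk1 at 13.40 (others 13.83 to 13.88) and for Pdk1 at 9.63 (others 10.58 to 10.66).

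At day 1, 9A1 replicate 1 stood low for Aldoc at 8.40 (others 11.53 to 11.77), Tpi1 at 12.93 (others 13.37 to 13.44), Gapdh at 13.92 (others 14.28 to 14.35), Pgam1 at 12.04 (others 12.50 to 12.56) and Egln1 at 9.28 (others 9.84 to 9.86), and high for Pdk3 at 7.14 (others 6.11 to 6.28). Day 1 9A1 replicate 2 stood high for Aldoa at 13.63 (others 13.06 to 13.13).

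At day 5, 9A1 replicate 2 stood high for Gapdh at 14.60 (others 14.45 to 14.47), Egln3 at 12.43 (others 11.82 to 11.90) and the mean of the flux regulators at 9.12 (others 8.67 to 8.73), and 14B3 replicate 2 stood low for Hk2 at 10.30 (others 10.82 to 10.91).

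Kdm3a moved in opposite directions between day 5 and day 1 in the lines. The difference was 0.61 in 9A1 and -0.17 in 14B3, with both day 5 arrays above both day 1 arrays in 9A1 and both below in 14B3. That difference between the lines was not tested.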

How the results depend on the processing

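None of the 27 member results called with all arrays changed direction under any of 24 alternatives. Over these 648 repeats the call was kept in 515 and lost in 133, and 14 of the 27 were called whichever single array was left out. At day 5 against basal culture those were Ankrd37, Higd1a, Ldha, Pfkfb2, Pfkfb4 and Pfkp. The counts moved more. The share of all genes called also changes from fit to fit and is not given here, so these counts are not read as a result about the members. Against 4 members called at day 1, 9 at day 5 and 14 between day 5 and day 1, a threshold of 0.01 gave 1, 5 and 7. In 9A1 alone the counts were 0, 0 and 0 (limma, with 2, 4 and 11 at an unadjusted p under 0.05), and in 14B3 alone 15, 21 and 24. Leaving out both basal 9A1 replicate 1 and day 1 9A1 replicate 2 gave 12, 24 and 24, and 10 members between the lines over the cultures, against 0. Array weights gave 16 at day 5 against basal culture. With 1 array left out the counts ran from 1 to 10 at day 1, from 6 to 22 at day 5 (22 without basal 9A1 replicate 1, 15 without either day 1 9A1 array) and from 7 to 20 between day 5 and day 1 (20 without either basal 9A1 array). They ran from 0 to 4 for the lines' difference in the day 1 response, from 0 to 3 in the day 5 response and from 0 to 2 between the lines over the cultures, the 4, 3 and 2 without basal 9A1 replicate 2. Such a fit takes the lone array of its group to vary like the other groups. A replicate block gave 4, 9 and 12. Deviations of same-numbered arrays from their group means correlated at -0.3025 to 0.4987 over 15 pairs of groups. With 2 arrays per group, these values cannot tell whether the numbers pair the cultures. Between day 5 and day 1 the replicate block left out Tpi1 and Egln1 and changed no other call.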

Other observations

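The enzymes that burn pyruvate in mitochondria were set beside the members. Of 21 genes of pyruvate oxidation and the citric acid cycle tested, 11 rose at day 5 against basal culture and 1 fell, where 16.9% of all genes rose and 18.6% fell. Mpc1, a subunit of the carrier that brings pyruvate into mitochondria, rose by 1.54, Ogdh, the oxoglutarate dehydrogenase, by 1.42 and Suclg2, a subunit of succinyl-CoA ligase, by 0.77 log2. Idh3a, a subunit of isocitrate dehydrogenase, fell by 0.62. Their mean level was 11.59 to 11.72 on the day 5 arrays and 11.14 to 11.42 on the basal arrays, where 9A1 replicate 1 was the highest. Without basal 9A1 replicate 1 the count was 12 higher and 1 lower, Mpc1, Ogdh and Suclg2 were higher by 1.86, 1.56 and 0.95 and Idh3a fell by 0.71, where 19.7% of all genes rose and 20.8% fell.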
